A study of Mus musculus with 16 samples.

Results

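The genes described here make up the unfolded protein response and the folding, quality control and translocation machinery of the endoplasmic reticulum (ER). They were taken as a list of 39 gene names, of which 38 were rows of the expression table. Of these, 37 reached 1 FPKM (fragments scaled to transcript length and to the number of mapped fragments) in at least 4 of the 16 libraries and were tested among 10846 genes, out of 13982 genes in the table. Ern1, which encodes the stress sensor IRE1, did not reach that level, its highest value being 1.15 FPKM in MCAO replicate 1. Vimp, an older symbol of Selenos, was not a row of the table.

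The libraries came from cells of the mouse cortex that were stained for CD45 and CD11b, sorted, and labelled as microglia, with C57BL/6 as the strain of all groups. Sham mice, labelled as untreated, were compared with mice after middle cerebral artery occlusion (MCAO), a model of ischaemic stroke. Animals of the groups named MCAO+Ctrl-Exos and MCAO+AS-Exos had the same occlusion and also received exosomes, small vesicles released by cells, which came from blood plasma of Apoe knockout donors kept on Western or on normal food. The labels do not spell out AS or Ctrl, nor say in so many words which diet belongs to which. The dose was 150 µg into the tail vein every 3 days, starting on the day of the operation, and the protocol describes 12 weeks of the Western, high-fat diet as the way in which atherosclerosis was produced. Each group had 4 libraries. Age, sex, the time from occlusion to sorting, a vehicle injection in the MCAO group and whether each library was 1 mouse or a pool are not stated in the labels. The p-values below therefore measure the spread between these libraries, which may in part be technical.

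Proteins that enter the ER are threaded through the Sec61 channel, freed of their signal peptide, folded by chaperones such as BiP (the product of Hspa5) and cross-linked by protein disulfide isomerases. When unfolded proteins build up, 3 sensors in the ER membrane respond. IRE1 splices the mRNA of Xbp1, PERK (Eif2ak3) slows translation while allowing ATF4 to be made, and ATF6 is cut and moves to the nucleus. The resulting transcription factors raise chaperones, ER-associated degradation (ERAD) and, under lasting stress, CHOP (Ddit3), a factor linked to cell death. Microglia and macrophages use the same pathway when secretion rises, and parts of it are also used by amino acid shortage and other stresses that act through ATF4.

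XBP1 and ATF6 act through short promoter sequences, which are shown here because the comparison of the exosome groups below is also given by whether a gene carries one. A promoter window of 300 bases, from 250 before to 50 after the annotated start, was found for 33 of the 39 names in RefSeq's annotation of the mouse build GRCm38.p6, and Hyou1, Manf, Atf6, Derl1, Vimp and Sec61a1 had no entry. Both strands were searched for the ER stress element (CCAAT, then 9 bases, then CCACG), ER stress element II (ATTGG, 1 base, CCACG), the core of the unfolded protein response element (TGACGTGG) and the core of the amino acid response element bound by ATF4 (TGATG, 1 base, AA). The first 3 share letters, since CCACG or its reverse complement is part of each. Fkbp2 had 3 windows, so genes are counted here. The ER stress element was found in 8 of the 33 genes, against 0.137% of all 27025 genes with a window. Element II was found in 2 genes, against 0.0444% of all genes, and the amino acid response core in 4, against 4.51%. The unfolded protein response element core was in none of the 33 genes, against 0.714% of all genes. A match is a description of the letters and not evidence of binding, and no match says only that these letters are not in the window.

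The Hspa5 window, chr2:34771840-34772139 on the plus strand, and the Herpud1 window, chr8:94386179-94386478 on the plus strand, are printed whole because BiP and Herpud1 carry the main exosome result and the main stroke result below. Capitals mark the matches, which in Hspa5 is the ER stress element and in Herpud1 is the amino acid response core, read on the opposite strand, followed by ER stress element II.
Hspa5: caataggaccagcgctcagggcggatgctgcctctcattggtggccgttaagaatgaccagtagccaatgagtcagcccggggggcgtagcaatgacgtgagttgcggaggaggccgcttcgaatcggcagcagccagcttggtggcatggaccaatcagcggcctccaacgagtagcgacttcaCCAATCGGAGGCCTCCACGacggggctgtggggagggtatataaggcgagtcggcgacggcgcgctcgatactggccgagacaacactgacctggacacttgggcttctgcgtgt
Herpud1: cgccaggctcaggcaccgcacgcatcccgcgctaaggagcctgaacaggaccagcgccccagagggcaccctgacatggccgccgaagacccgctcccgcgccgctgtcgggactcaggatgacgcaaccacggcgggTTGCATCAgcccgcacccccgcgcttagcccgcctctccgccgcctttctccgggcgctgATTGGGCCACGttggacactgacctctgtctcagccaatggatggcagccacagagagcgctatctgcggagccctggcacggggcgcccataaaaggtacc
The Hspa5 element lay 65 to 47 bases before the start, and element II of Herpud1 lay 52 to 42 bases before it.

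The other windows with an ER stress element belonged to lumenal chaperones, a protein disulfide isomerase and a ubiquitin ligase of ERAD, and their elements are set side by side, with the conserved ends in capitals. Hsp90b1 carried 2 of them.
Hspa5: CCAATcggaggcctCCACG
Hsp90b1: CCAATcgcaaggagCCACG
Hsp90b1: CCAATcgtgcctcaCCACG
Calr: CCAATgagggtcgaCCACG
Canx: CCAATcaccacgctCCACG
Dnajc3: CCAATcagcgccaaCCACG
Creld2: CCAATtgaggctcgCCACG
Pdia6: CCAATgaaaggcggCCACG
Syvn1: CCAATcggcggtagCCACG
Element II was read in Dnajb11 as ATTGGcCCACG, 8 to 18 bases after the start, and in Herpud1 as ATTGGgCCACG. The amino acid response core was read in Chac1 and Herpud1 as TGATGcAA, in Trib3 as TGATGtAA and in Asns as TGATGaAA, all 4 of them genes known as targets of ATF4 or of the ER stress response.

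The summed FPKM of a library ranged from 758283 to 983648, and read numbers are not given, so the depth behind single values is unknown. The labelled cell type was checked against marker genes. All 15 markers of resting microglia were expressed in Sham, where they summed to 23802 to 27194 FPKM per library, and all 15 were lower in MCAO, at 1570 to 2558 FPKM. The 15 markers of monocytes and monocyte-derived macrophages went the other way, from 216 to 613 FPKM in Sham to 6284 to 10897 FPKM in MCAO, with all 15 called higher. Markers of border-associated macrophages (10 of 11 tested) and neutrophils (7 of 9 tested) were also called higher. Of the 10 neutrophil markers in the table, 2 were at 0 in every Sham library and 1 in every MCAO library. In bulk samples fewer cells of a type and less RNA per cell cannot be told apart. MCAO+AS-Exos replicate 4 stood apart from the other 3 libraries of its group: its mean correlation with all libraries of the MCAO group was 0.922, with the MCAO+Ctrl-Exos group 0.928 and with its own group 0.915, whereas replicates 1 to 3 reached 0.956 to 0.962 with their own group. Its monocyte marker sum was 6631 FPKM, against 21673 to 24239 FPKM in the other 3. Results for the exosome groups are therefore given with and without it.

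In MCAO against Sham, the members did not move as a block: 9 of 37 rose and 10 fell. Among all genes tested, 24.5% were called higher and 14.8% lower. Under quantile normalization 7 rose and 13 fell, and over all 10846 genes 2084 were called higher and 2164 lower. Among those that rose were the disulfide isomerases Pdia6 and P4hb, the channel subunits Sec61b and Sec61a1 and 3 lumenal chaperones, and among those that fell were Herpud1, Ddit3, Atf4, Xbp1, Dnajb9 and Ppp1r15a. The median log2 fold change was 0.21 over the members and 0.25 over all genes tested. All fold changes here are on the scale of log2(FPKM + 1), which understates the change of weakly expressed genes, with standard errors (SE) from limma and p-values adjusted by Benjamini-Hochberg over the 10846 genes. A gene is said to have risen or fallen where its adjusted p was under 0.05.

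**Figure D1:**
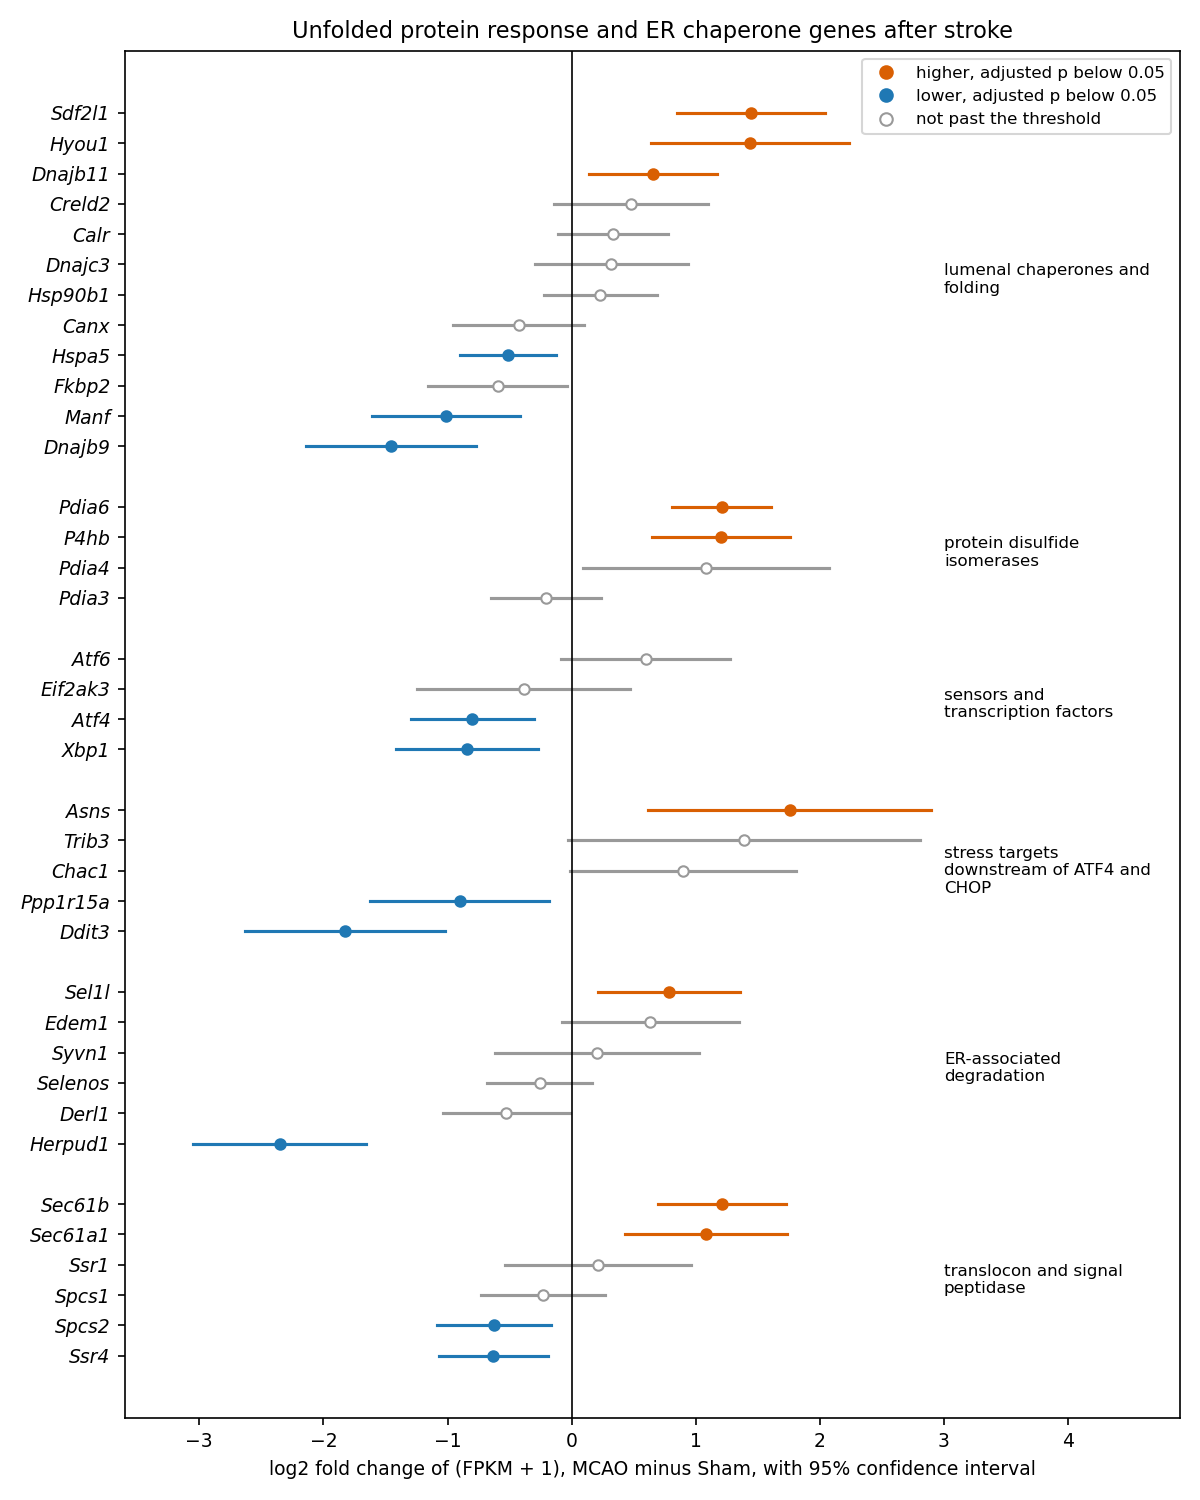
Log2 fold change of (FPKM + 1), MCAO minus Sham, for the 37 members in 6 role groups, 4 libraries per group. Points are limma estimates, lines are 95% confidence intervals, orange marks the 9 members called higher and blue the 10 called lower. Herpud1 lies farthest to the left, at -2.35, and the positions of Asns, Trib3 and Chac1, which were listed at 0 in Sham, depend on the pseudocount of 1.

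Among the 12 lumenal chaperones and folding factors, 3 rose and 3 fell. Sdf2l1, a partner of ER DnaJ proteins that keeps folding clients soluble, was at 38.2, 61.4, 45.9 and 75.0 FPKM in Sham and at 207, 156, 146 and 98.9 FPKM in MCAO. The groups did not overlap, and the log2 fold change was 1.45 (SE 0.29, adjusted p = 0.00048). Hyou1, a large chaperone that works as a nucleotide exchange factor for BiP, was expressed at a low level, at 0.900, 0.580, 0.670 and 1.84 FPKM in Sham and 6.86, 5.49, 2.23 and 3.69 FPKM in MCAO. It rose by 1.44 (SE 0.38, adjusted p = 0.00547), again without overlap. Dnajb11, a co-chaperone of BiP, rose by 0.65 (SE 0.25, adjusted p = 0.0422), from 42.4 ± 9.38 to 66.6 ± 9.17 FPKM (SD, n = 4), a call that was lost in 13 of the 27 alternative analyses.

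Dnajb9, Manf and Hspa5 fell. Dnajb9, a co-chaperone that returns BiP to IRE1 and is a standard target of XBP1, was at 186, 115, 123 and 59.5 FPKM in Sham and at 31.2, 63.1, 42.4 and 31.4 FPKM in MCAO. Only MCAO replicate 2 lay above the lowest Sham library, and the log2 fold change was -1.46 (SE 0.33, adjusted p = 0.00159). Manf, a secreted ER stress protein with neurotrophic activity, stood at 443, 474, 501 and 445 FPKM in Sham and at 259, 328, 162 and 202 FPKM in MCAO. Every MCAO library was below every Sham library, with a log2 fold change of -1.01 (SE 0.29, adjusted p = 0.00832).

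Hspa5, the master chaperone that holds all 3 sensors inactive, was at 589, 562, 532 and 616 FPKM in Sham and at 435, 492, 359 and 342 FPKM in MCAO. The groups did not overlap and the log2 fold change was -0.51 (SE 0.19, adjusted p = 0.0352), but the call was kept in only 19 of 27 alternatives. The other 6 chaperones gave no call, among them the lectin chaperones of glycoprotein folding, Calr (0.33) and Canx (-0.43), and the ER form of HSP90, Hsp90b1 (0.23).

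Disulfide isomerases, which form and rearrange the disulfide bonds of folding proteins, were the group with the highest median, 1.14 over 4 genes, of which 2 rose and none fell. Pdia6 was at 95.8, 135, 129 and 147 FPKM in Sham and at 355, 260.5, 258 and 299 FPKM in MCAO. P4hb, the archetypal isomerase of the family, was at 52.6, 69.1, 69.7 and 88.2 FPKM in Sham and at 216, 164, 115 and 159 FPKM in MCAO. Neither gene's groups overlapped, and the log2 fold changes were 1.21 (SE 0.19, adjusted p = 4.94e-05) for Pdia6 and 1.20 (SE 0.27, adjusted p = 0.00132) for P4hb. Pdia4 ranged from 4.93 to 23.9 FPKM in Sham (4.93, 14.0, 19.3 and 23.9) and reached 26.7, 54.0, 24.1 and 22.7 FPKM in MCAO. Its difference of 1.08 (SE 0.47) came with an adjusted p of 0.0759. Pdia3, the partner of calreticulin and calnexin, was close in both groups, at 323 ± 46.3 and 279 ± 27.5 FPKM (SD, n = 4).

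**Figure D2:**
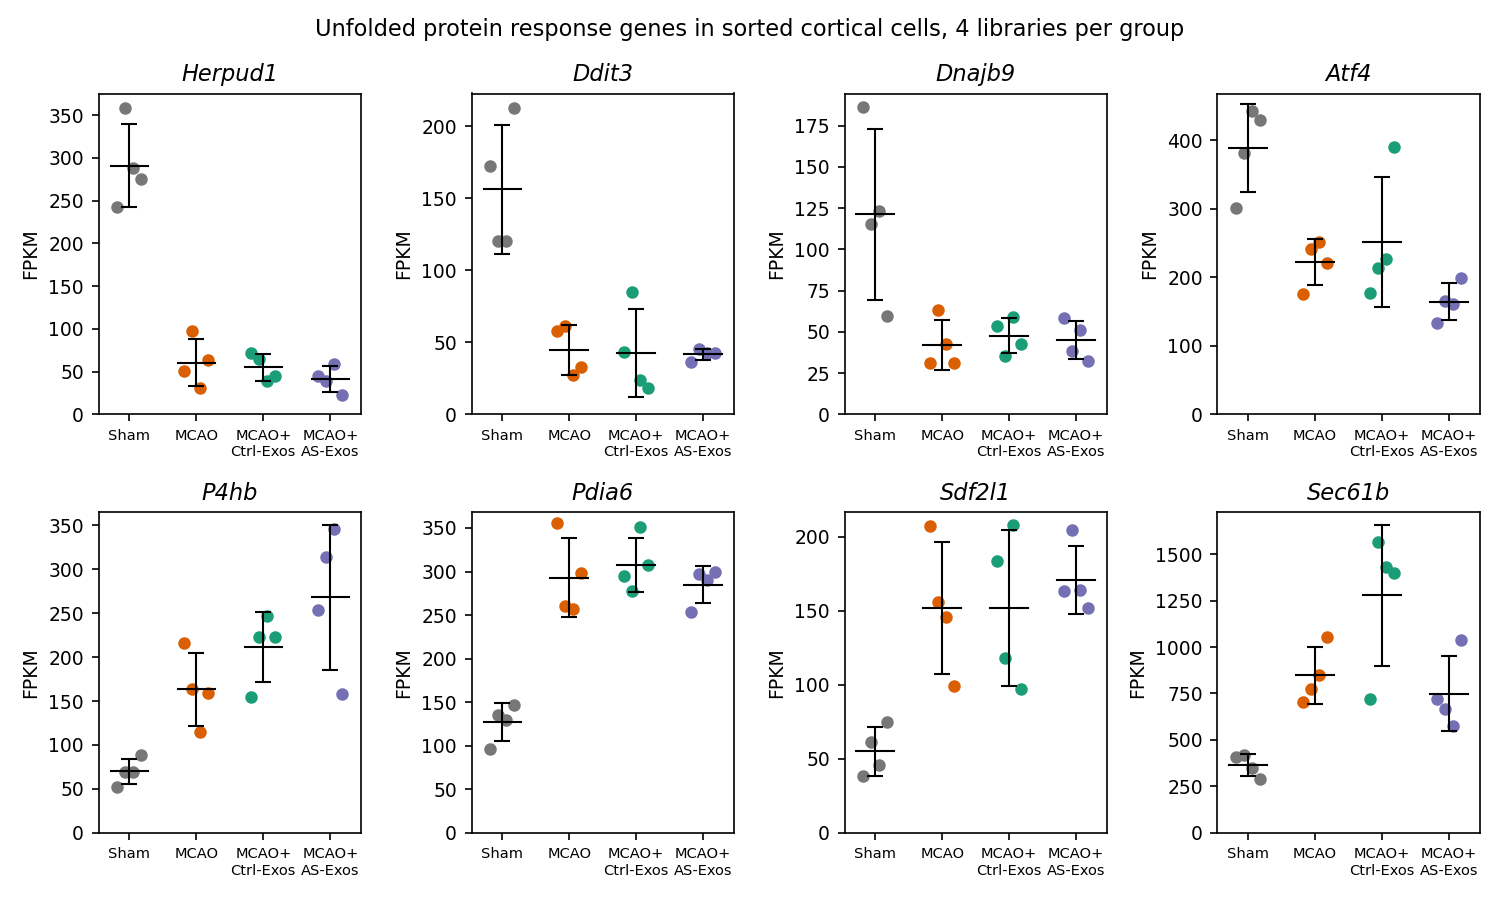
FPKM of 8 members in each of the 16 libraries, on axes that start at 0. Points are libraries, the long bar is the mean and the short bars are 1 SD. Herpud1 and Ddit3 are highest in the 4 Sham libraries, and Pdia6, P4hb and Sec61b are lowest there. The 8 genes were picked with their values known.

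Of the 4 sensors and transcription factors tested, 2 fell and none rose. Atf4 mRNA, the effector of the PERK branch, was at 301, 381, 443 and 429 FPKM in Sham and at 175, 241, 252 and 222 FPKM in MCAO, with no overlap and a log2 fold change of -0.80 (SE 0.24, adjusted p = 0.012). Xbp1 was at 135, 152, 135 and 179.7 FPKM in Sham and at 92.2, 102, 79.2 and 63.0 FPKM in MCAO, a log2 fold change of -0.84 (SE 0.27, adjusted p = 0.0197), which was lost without MCAO replicate 4 (adjusted p = 0.0648). Gene-level values do not separate spliced from unspliced Xbp1, and ATF4 is controlled mainly at translation, so the activity of both factors was not measured. The sensors themselves gave no call: Eif2ak3 averaged 10.3 ± 4.40 and 7.63 ± 3.45 FPKM, and Atf6 9.94 ± 2.98 and 15.4 ± 4.18 FPKM (SD, n = 4), in Sham and MCAO.

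Of the 5 genes downstream of ATF4 and CHOP, 1 rose and 2 fell. Ddit3, which encodes CHOP, was at 172, 121, 120.1 and 213 FPKM in Sham and at 58.0, 61.1, 27.2 and 32.6 FPKM in MCAO, a log2 fold change of -1.82 (SE 0.39, adjusted p = 0.000891) without overlap. Ppp1r15a, the phosphatase subunit GADD34 that lets translation resume, fell by 0.90 (SE 0.34, adjusted p = 0.0446). Its Sham libraries were widely spread, at 35.2, 122, 70.4 and 129.6 FPKM, and the call was kept in 15 of 27 alternatives.

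Asns, Trib3 and Chac1, which carry the amino acid response core in their windows, were listed at 0 in all 4 Sham libraries. Asns, which makes asparagine, was at 3.99, 2.18, 4.09 and 0.620 FPKM in MCAO and rose (adjusted p = 0.0152). Trib3, a pseudokinase that dampens ATF4 signalling, was at 1.80, 0, 0.0300 and 15.3 FPKM, so its MCAO mean rested on replicate 4, and the adjusted p was 0.112. Chac1, which degrades glutathione, was at 0.150, 1.44, 0 and 3.26 FPKM (adjusted p = 0.11). No fold against Sham is given for these 3 genes. They passed the filter on low values only through stroke libraries, since none reached 1 FPKM in Sham. Asns reached it in 3 libraries of each stroke group. The filter thus favoured a higher value after stroke, and the Asns call, counted among the members that rose, is given as a value only.

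ERAD takes misfolded proteins out of the ER for destruction by the proteasome. Its scaffold Herpud1, an early target of both the ATF4 and the ATF6 branch, had the smallest adjusted p of all members. It was at 243, 358, 288 and 275 FPKM in Sham and at 50.4, 97.0, 30.7 and 63.7 FPKM in MCAO, so the groups did not overlap. The log2 fold change was -2.35 (SE 0.33, adjusted p = 1.4e-05), and it ranged from -2.70 to -2.07 over 27 alternatives, all of which called it. Sel1l, the adaptor of the HRD1 ligase complex, rose by 0.78 (SE 0.27, adjusted p = 0.0292), from 17.2 ± 5.04 to 29.5 ± 2.84 FPKM (SD, n = 4). Syvn1, which encodes HRD1 itself (0.20), the mannosidase-like Edem1 (0.63), the channel protein Derl1 (-0.53) and Selenos (-0.26) gave no call.

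Of the 6 genes of the translocon and signal peptidase, 2 rose and 2 fell. Sec61b, the beta subunit of the channel, was at 406, 417, 351 and 288 FPKM in Sham and at 705, 776, 851 and 1056 FPKM in MCAO, and Sec61a1, the pore itself, was at 8.44, 20.4, 15.3 and 21.9 FPKM and at 25.9, 49.2, 28.3 and 37.7 FPKM. Both rose without overlap, by 1.21 (SE 0.25, adjusted p = 0.000646) and 1.09 (SE 0.31, adjusted p = 0.00943). Ssr4, a subunit of the translocon-associated protein complex, fell by 0.63 (SE 0.21, adjusted p = 0.0218), and so did Spcs2 of the signal peptidase, also by 0.63 (SE 0.22, adjusted p = 0.0293). Ssr1 (0.21) and Spcs1 (-0.23) gave no call.

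Of the 19 members called in MCAO against Sham, 11 kept their call in every alternative analysis run. These were Hyou1, Sdf2l1, Pdia6, P4hb, Sec61b and Sec61a1 among the higher ones and Dnajb9, Manf, Atf4, Ddit3 and Herpud1 among the lower ones. Of the other 8, Xbp1 lost its call without MCAO replicate 4, and Asns lost it under quality weights. Leaving out 1 of these libraries ended the calls of the rest: for Hspa5 Sham 1, 2 or 4 or MCAO 3 or 4 (adjusted p from 0.0582 to 0.0998), for Sel1l Sham 2 or 3 or MCAO 1, 2 or 4 (0.056 to 0.0972), for Ssr4 Sham 2 or MCAO 3 or 4 (0.058 to 0.0699), and for Spcs2 Sham 2 or 3 or MCAO 1 or 4 (0.0586 to 0.0881). For Ppp1r15a it was Sham 2, 3 or 4, any MCAO library or MCAO+AS-Exos 2 (0.0543 to 0.143). For Dnajb11 it was Sham 2 or 4, MCAO 1, 2 or 4, MCAO+Ctrl-Exos 3 or MCAO+AS-Exos 1, 2 or 3 (0.0502 to 0.123). A library outside the comparison can matter because all 16 share 1 estimate of the spread.

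Genes that tissue digestion is known to induce moved with the falling members. A list of 24 such immediate early and heat shock genes summed to 15061 to 18629 FPKM in Sham and to 6099 to 6636 FPKM in MCAO, and of 23 tested 13 fell and 1, Nr4a1, rose. The part of this, and of the exchange of microglial for monocyte markers, in the members' changes was not tested, and cell mixture and expression per cell cannot be told apart here.

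The exosome groups were also compared with Sham, and since those comparisons reuse the Sham libraries they are given as values and not as a repeat. In MCAO+Ctrl-Exos against Sham, 13 members rose and 5 fell, where 22.1% and 16.6% of all genes did. This balance depended on the scaling, with 9 higher and 12 lower under quantile normalization and 9 and 9 with equal totals. The calls over all 10846 genes moved as well, from 2392 higher and 1802 lower to 2066 and 2116 under quantile normalization. With equal totals they were 1933 and 2134. Of the 10 members that fell in MCAO, 5 were not called lower in this group: Hspa5 (0.12, adjusted p = 0.636), Manf (0.02, adjusted p = 0.958), Ssr4 (-0.06, adjusted p = 0.853), Xbp1 (-0.69, adjusted p = 0.0525) and Spcs2 (-0.55, adjusted p = 0.0556). Under quantile normalization Hspa5 turned to -0.59 (adjusted p = 0.0105). In MCAO+AS-Exos against Sham, 8 rose and 9 fell, where 20.7% and 19.1% of all genes did. Herpud1 was at 71.2, 64.7, 38.7 and 44.4 FPKM in MCAO+Ctrl-Exos and at 44.7, 39.0, 59.0 and 22.6 FPKM in MCAO+AS-Exos, with log2 fold changes against Sham of -2.42 and -2.85 (SE 0.33 each, adjusted p = 9.5e-06 and 1.2e-06). Ddit3 was at 42.9, 85.2, 23.9 and 17.99 FPKM and at 36.5, 45.1, 42.6 and 42.5 FPKM in the same groups. Both genes were thus low in all 12 stroke libraries.

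**Figure D3:**
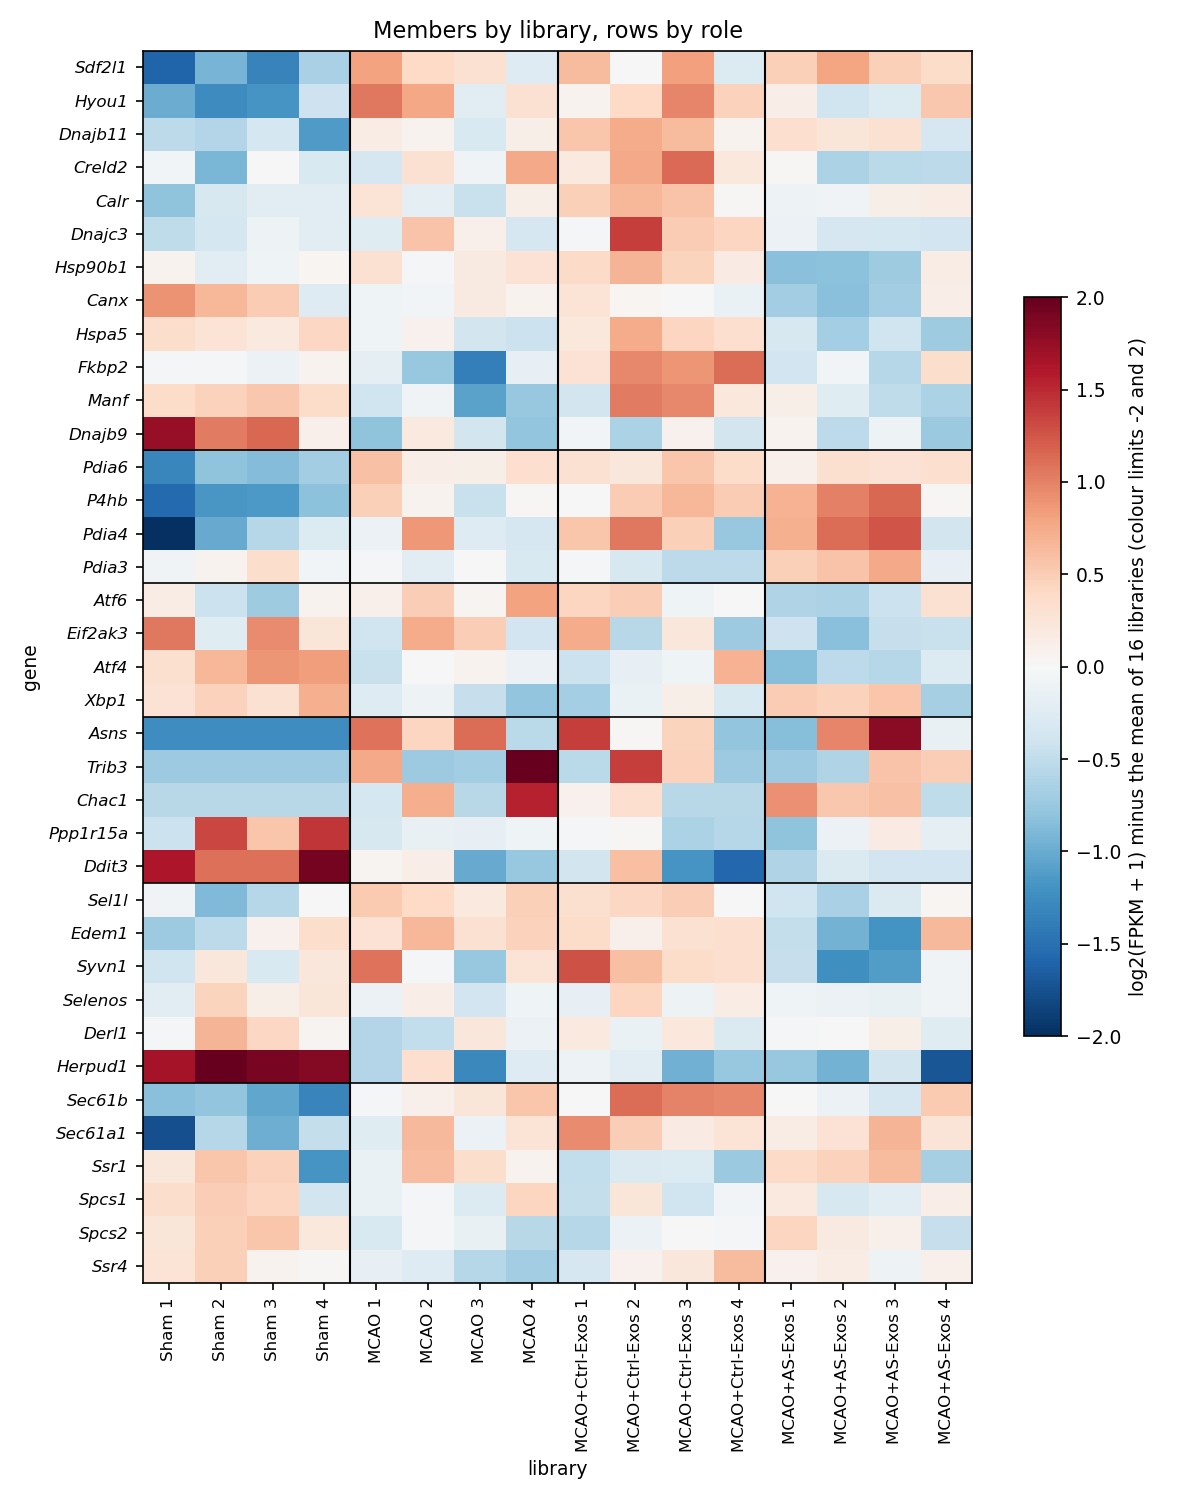
The 37 members in the 16 libraries, as log2(FPKM + 1) minus the gene's mean over all libraries, with rows by role and colours limited at -2 and 2. Herpud1 and Ddit3 are deep red in the Sham libraries and blue in most stroke libraries. In MCAO+AS-Exos, replicate 4 differs from replicates 1 to 3 for Xbp1, Hsp90b1, Canx and Edem1.

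Between the exosome groups the summed level of the 12 lumenal chaperones separated the libraries. It took 0.358%, 0.400%, 0.389% and 0.300% of all FPKM in the MCAO+Ctrl-Exos libraries and 0.229%, 0.220%, 0.228% and 0.253% in the MCAO+AS-Exos libraries, so the groups did not overlap. The MCAO libraries without exosomes were at 0.315%, 0.290%, 0.235% and 0.258%, overlapping with both. The Sham libraries, at 0.342%, 0.307%, 0.326% and 0.324%, overlapped with MCAO+Ctrl-Exos and lay above all MCAO+AS-Exos libraries. The sum includes Hspa5, Hsp90b1 and Fkbp2, described below. The 4 disulfide isomerases summed to 790, 804, 850.5 and 760 FPKM in MCAO+Ctrl-Exos. In MCAO+AS-Exos they summed to 979, 1129, 1220 and 751 FPKM, with overlap. Of all 10846 genes tested, 563 were higher and 544 lower in MCAO+AS-Exos than in MCAO+Ctrl-Exos without overlap. These shares and sums are a description, and few single genes passed the test. MCAO+Ctrl-Exos (Ctrl-Exos for short) against MCAO gave 1 member higher and 0 lower, MCAO+AS-Exos (AS-Exos) against Ctrl-Exos 0 higher and 1 lower, and AS-Exos against MCAO 0 higher and 1 lower.

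These counts stand against few calls in all. In MCAO+Ctrl-Exos against MCAO, 0.0461% of all genes tested were called higher and 0.0277% lower. In MCAO+AS-Exos against MCAO+Ctrl-Exos the shares were 0.157% and 0.129%, and in MCAO+AS-Exos against MCAO they were 1.06% and 5.08%. At an unadjusted p under 0.05 the limma fits gave 6, 13 and 10 of the 37 members in these 3 comparisons, and 1181, 2127 and 2785 of the 10846 genes tested. The comparisons share groups with one another, so their values are not independent.

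Hspa5 was the member called between the exosome groups. It was at 535, 777, 622 and 589 FPKM in MCAO+Ctrl-Exos and at 371, 288, 350.5 and 282 FPKM in MCAO+AS-Exos, against 435, 492, 359 and 342 FPKM in MCAO. All 4 AS-Exos libraries were below all 4 Ctrl-Exos libraries, while AS-Exos and MCAO overlapped. The log2 fold change of AS-Exos against Ctrl-Exos was -0.96 (SE 0.19, adjusted p = 0.034), and that against MCAO was -0.33 (SE 0.19, adjusted p = 0.269). Ctrl-Exos was above MCAO by 0.63 (SE 0.19, adjusted p = 0.211). The difference stayed between -1.04 and -0.86 in all 27 alternatives, but the call was kept in only 19 of them. Without MCAO+Ctrl-Exos replicate 2, 3 or 4 or MCAO+AS-Exos replicate 1, 2 or 3 the adjusted p lay between 0.0733 and 0.168. The call was also lost when limma was run without trend and robust, and with only the 8 libraries compared.

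Hsp90b1, the ER form of HSP90, which folds Toll-like receptors and integrins, was the member called between AS-Exos and MCAO. It was at 406, 321, 373 and 399 FPKM in MCAO, at 426, 528, 447 and 369 FPKM in MCAO+Ctrl-Exos and at 183, 186, 199 and 362 FPKM in MCAO+AS-Exos. The first 3 AS-Exos libraries were lower than every other library of the study, and replicate 4 was not. Against MCAO the log2 fold change was -0.74 (SE 0.22, adjusted p = 0.0486), and against Ctrl-Exos -0.98 (SE 0.22, adjusted p = 0.0502). Without AS-Exos replicate 4 the latter became -1.21 (adjusted p = 0.000577), and that against MCAO -0.98 (adjusted p = 0.00132). The call against MCAO was kept in 11 of 27 alternatives. The call against MCAO was lost without any 1 of the other 3 AS-Exos libraries (adjusted p from 0.164 to 0.174) or any MCAO library (0.0691 to 0.109), and also without Sham 2 or 3 or Ctrl-Exos 2, 3 or 4 (0.0543 to 0.0595).

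Fkbp2, a proline isomerase of the ER lumen, was the member called between Ctrl-Exos and MCAO. Its values were 294, 199.8, 130.3 and 301 FPKM in MCAO, 415, 656, 623 and 734 FPKM in MCAO+Ctrl-Exos and 259, 327, 228 and 431 FPKM in MCAO+AS-Exos. Ctrl-Exos did not overlap with MCAO, and the log2 fold change was 1.43 (SE 0.27, adjusted p = 0.0465). This call was the least stable of the 3, being kept in 9 of 27 alternatives. It was lost when length and GC trends were removed (1.18, adjusted p = 0.104) and when 1 of these libraries was left out: Ctrl-Exos 2, 3 or 4 (adjusted p from 0.155 to 0.167), MCAO 1, 2 or 3 (0.0507 to 0.134), AS-Exos 1, 2 or 3 (0.0557 to 0.0864) or Sham 2 or 3 (0.0633 to 0.0712).

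**Figure D4:**
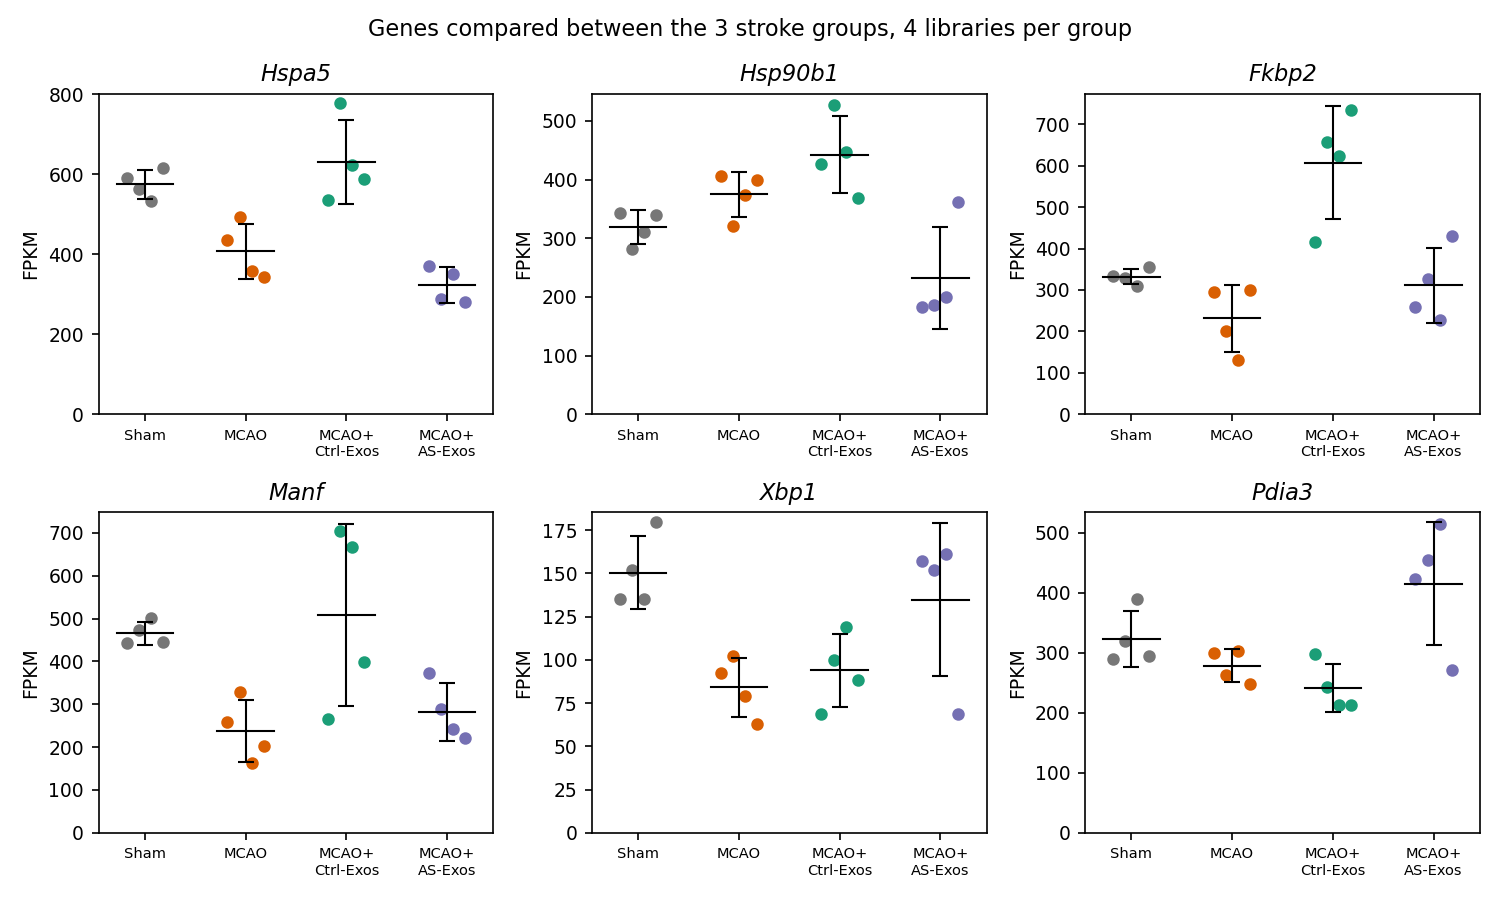
FPKM of 6 members in the 16 libraries, on axes that start at 0. Points are libraries, the long bar is the mean and the short bars are 1 SD. Hspa5 in MCAO+AS-Exos lies below all MCAO+Ctrl-Exos libraries, and 1 MCAO+AS-Exos library, replicate 4, stands apart for Hsp90b1, Xbp1 and Pdia3. The 6 genes were picked with their values known.

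AS-Exos replicate 4 set how many members were called. With it, AS-Exos against Ctrl-Exos gave 0 members higher and 1 lower. Without it, there were 2 higher and 7 lower. Higher were Pdia3 (0.95, adjusted p = 0.00351) and Xbp1 (0.76, adjusted p = 0.0378), and lower were Hsp90b1, Canx (-0.79), Fkbp2 (-1.14), Edem1 (-1.14), Syvn1 (-1.58) and Sec61b (-0.91), besides Hspa5. Against MCAO, leaving it out gave 3 members higher, Pdia3, P4hb and Xbp1, and 4 lower, which included Canx, Edem1 and Sel1l. Counts over all genes are not given for that fit, so whether the members' counts exceed the share over all genes is not known. The counts over all genes rose when Ctrl-Exos replicate 1 was left out as well. AS-Exos against Ctrl-Exos then gave 356 of 10846 genes higher and 732 lower, where all libraries gave 17 and 14. AS-Exos against MCAO gave 464 and 1691, where all libraries gave 115 and 551. In the 3 other AS-Exos libraries the monocyte marker sum was above that of every other library of the study. Their neutrophil marker sum was 6524 to 8192 FPKM, against 3539 FPKM in replicate 4, 1834 to 3657 FPKM in Ctrl-Exos and 1723 to 9985 FPKM in MCAO. The part of either in these differences was not tested.

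The values of these genes show how the 4 AS-Exos libraries divided. Xbp1 was at 157, 152, 161 and 68.8 FPKM in MCAO+AS-Exos, and at 68.5, 100.1, 119 and 88.4 FPKM in MCAO+Ctrl-Exos. Pdia3 was at 423, 454, 514 and 271 FPKM and at 297, 243, 213 and 212 FPKM. Edem1, which passes misfolded glycoproteins to ERAD, was at 26.6, 19.1, 15.8 and 59.1 FPKM and at 48.5, 40.2, 46.4 and 47.4 FPKM. For each of these 3 genes the first 3 AS-Exos libraries lay on 1 side of all Ctrl-Exos libraries, and replicate 4 lay within their range or on the other side. With all 4 libraries none of the 3 was called, the adjusted p being 0.349 for Xbp1, 0.0802 for Pdia3 and 0.223 for Edem1.

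Manf and Sec61b had wide spreads in Ctrl-Exos. Manf was at 266, 704, 667 and 398 FPKM in MCAO+Ctrl-Exos and at 373, 289, 241 and 221 FPKM in MCAO+AS-Exos, with 238 ± 72.2 FPKM in MCAO (SD, n = 4). Its difference from MCAO was 1.04 (SE 0.29, adjusted p = 0.18). Sec61b was at 718, 1565, 1430.3 and 1399 FPKM in MCAO+Ctrl-Exos, so replicate 1 stayed at the MCAO level and the other 3 were above every other library. The difference from MCAO was 0.55 (SE 0.25, adjusted p = 0.43). Leaving out Ctrl-Exos replicate 1 together with AS-Exos replicate 4 brought both under the threshold, at 1.31 (adjusted p = 0.0187) for Manf and 0.80 (adjusted p = 0.0316) for Sec61b. The summed FPKM of the library was 784006 in Ctrl-Exos replicate 1 and 970623, 936101 and 983648 in replicates 2, 3 and 4. In MCAO it was 759311 to 840856. The part of these totals in the 2 differences was not tested in that fit.

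No call was made among the stress targets between the stroke groups. None of Ddit3, Trib3, Chac1, Ppp1r15a and Asns was called, and none had an unadjusted p under 0.05, in any of the 3 comparisons among them. For Ddit3 the difference of AS-Exos from Ctrl-Exos was 0.22, with a 95% confidence interval from -0.59 to 1.02. For Ppp1r15a it was 0.07, with an interval from -0.65 to 0.79, so a change of either sign within those bounds was not excluded. Atf4 was at 133, 166, 161 and 198 FPKM in MCAO+AS-Exos and at 177, 213, 226 and 391 FPKM in MCAO+Ctrl-Exos, a difference of -0.56 (SE 0.24, adjusted p = 0.206).

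The members were then set side by side by their promoters. This split was chosen after the members' values and the matches had been seen, so it is given with no test. In AS-Exos against Ctrl-Exos all 8 members with an ER stress element were lower, with a median log2 fold change of -0.92, while of 24 other members with a window 12 were lower, with a median of -0.01. Over all genes tested 54.7% were lower, with a median of -0.08. The split overlapped with role. In this comparison 1 of the 12 lumenal chaperones and 0 of the 6 ERAD genes were higher, with medians of -0.67 and -0.53. Of the 4 disulfide isomerases 3 were higher. Among chaperones with a window but no such element, Fkbp2 changed by -0.97, Dnajb11 by -0.37, Dnajb9 by -0.09 and Sdf2l1 by 0.23. The tested members without a window, Manf (-0.78), Atf6 (-0.55), Hyou1 (-0.47), Sec61a1 (-0.13) and Derl1 (-0.04), are in neither set and were all lower. The part of role in this split was not tested. In Ctrl-Exos against MCAO the 8 with the element were all higher, with a median of 0.45, while the 24 others had 11 higher and a median of -0.04. Both comparisons use the Ctrl-Exos libraries, so high values in that group would give opposite signs in the 2.

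**Figure D5:**
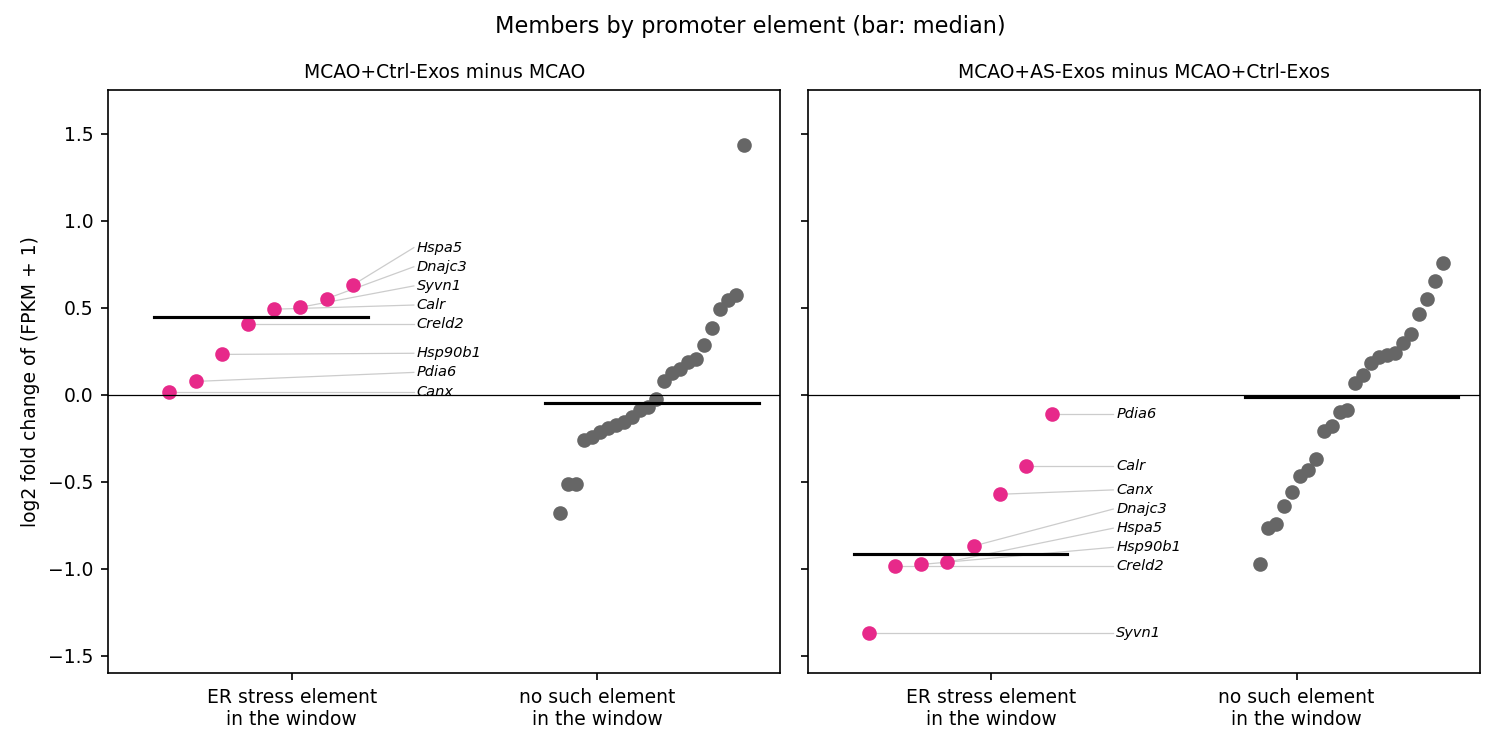
Log2 fold change of (FPKM + 1) for 8 members with an ER stress element in the promoter window (pink, named) and 24 tested members with a window and no such element (grey), for MCAO+Ctrl-Exos minus MCAO and MCAO+AS-Exos minus MCAO+Ctrl-Exos. Each point is a gene and bars are medians. The 8 genes are all above 0 in the first panel and all below 0 in the second.

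Against MCAO, where Ctrl-Exos is not used but the AS-Exos libraries are the same, 7 of the 8 were lower in AS-Exos. Their median was -0.44, and Calr was higher by 0.08. Of the 24 other members 12 were lower in that comparison, with a median of -0.01, and of all genes tested 59% were lower, with a median of -0.17. The spread within the 8 was wide: in AS-Exos against Ctrl-Exos it ran from -1.37 for Syvn1 to -0.11 for Pdia6. All 8 stayed negative in that comparison under quantile normalization, equal totals and removal of length and GC trends. They also did with each library of either exosome group left out in turn, the median then lying between -1.01 and -0.73. These settings reuse the values from which the split was chosen, so they are no separate support for it. The rise over MCAO depended on the scaling, since 5 of 8 were above 0 under quantile normalization and 6 of 8 with equal totals. Hspa5 was called in AS-Exos against Ctrl-Exos and the other 7 were not. Dnajc3, which inhibits PERK, was at 33.3, 89.5, 48.1 and 45.6 FPKM in Ctrl-Exos and at 31.0, 26.4, 26.2 and 25.7 FPKM in AS-Exos. Creld2, a secreted disulfide isomerase-like protein, was at 83.5, 124, 161 and 84.4 FPKM and at 74.0, 46.6, 50.2 and 50.7 FPKM. Syvn1 was at 28.2, 17.4, 14.5 and 14.1 FPKM and at 7.73, 4.12, 4.54 and 10.4 FPKM.

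Lists of other genes of the same pathways, with no member among them, showed few calls between the stroke groups and mixed calls against Sham. Among 26 tested amino acid transport, synthesis and tRNA ligase genes regulated by ATF4, 9 rose and 2 fell in MCAO against Sham, with a median of 0.82. The 3 with the smallest p were Slc3a2 (1.72, adjusted p = 8.62e-06), the heavy chain of amino acid exchangers, Slc1a5 (2.64, adjusted p = 4e-05), a glutamine carrier, and Psat1 (1.94, adjusted p = 0.000479), of serine synthesis. The other 15 were not called, and 24.5% of all genes tested were called higher in the same comparison.

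Of 32 tested genes of UPR sensing and signalling, 8 rose and 5 fell in MCAO against Sham. Over all genes tested 24.5% were called higher and 14.8% lower, and the count of this list was near those shares. The same shares stand beside the other lists in this comparison, and the genes named are those with the smallest p. Bax (2.92, adjusted p = 5.92e-08) and Bak1 (3.66, adjusted p = 4.31e-06), pore formers of cell death that also bind IRE1, rose, and Atf3 (-1.44, adjusted p = 2.94e-06), a stress factor induced through ATF4, fell like Ddit3. Other ER folding enzymes gave 4 higher and 3 lower of 24, with Ero1l, the oxidase that recharges disulfide isomerases, higher by 1.85 (adjusted p = 0.000143). Further ERAD genes gave 5 higher and 2 lower of 21, led by Vcp (1.72, adjusted p = 0.00016), the segregase that pulls substrates out of the membrane. Further translocon and glycosylation genes gave 6 higher and 3 lower of 26, and included the third channel subunit Sec61g (1.09, adjusted p = 0.00279).

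Among the mRNAs known to be cut by IRE1, 1 of 7 tested rose and 3 fell in MCAO against Sham, led by Sparc (-6.88, adjusted p = 3.12e-06). Sparc is also expressed by resting microglia, whose markers fell in the same libraries. Between the stroke groups, calls among these lists were limited to UPR sensing and signalling in AS-Exos against MCAO, with 1 higher and 4 lower of 32. Over all genes tested 1.06% were called higher and 5.08% lower there. Creb3, an ER-tethered transcription factor, was higher (1.33, adjusted p = 0.0378), and Cebpb (-3.40, adjusted p = 0.0208), a partner of CHOP, and Ddit4 (-1.61, adjusted p = 0.0343), an inhibitor of mTOR induced by ATF4, were lower.

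The scaling of the libraries bears on these directions. Quantile normalization moved the median of all genes in MCAO against Sham from 0.25 to -0.03 and changed the calls over all genes from 2654 higher and 1600 lower to 2084 and 2164. In AS-Exos against MCAO the median went from -0.17 to -0.02 and the calls from 115 higher and 551 lower to 96 and 222, and with equal totals the median was -0.27. In Ctrl-Exos against MCAO the median went from -0.14 to -0.03 with quantile normalization (5 genes higher and 2 lower, against 5 and 3) and to -0.31 with equal totals (2 and 3). Against Sham, equal totals moved the median from 0.12 to -0.06 in Ctrl-Exos and from 0.03 to -0.09 in AS-Exos, and quantile normalization moved that of Ctrl-Exos to -0.05.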

How the data were processed

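RNA of 16 sorted-cell libraries, 4 in each of 4 groups, was measured as gene-level expression. The deposited values were used as FPKM made by the authors. That unit was inferred: per the submitters' processing notes HISAT2, Bowtie2, RSEM 1.3.1 and the build GRCm39.p6 were used, and the library sums differ, but TPM over a subset of genes could look alike. The 16 single-library files held the same values as the table, and all columns were mapped to a sample by name. With no counts, the depth is unknown and no counting interval is given.

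Genes reaching 1 FPKM in 4 or more libraries (10846 of them) were fitted on log2(FPKM + 1) with limma 3.58.1 in R 4.3.3 (4 group means over all 16 libraries, empirical Bayes with trend and robust), with Benjamini-Hochberg adjustment over all of them in each of 6 comparisons and a threshold of 0.05. The procedure was checked on simulated data. Groups are those of the sample titles.

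The members and all gene lists were chosen with earlier results of these data known. Values in every library are given for members called among the 3 stroke groups and for those with the 12 smallest adjusted p or the 12 largest changes in MCAO against Sham. Further members are described by role, and context lists by up to 3 called genes with the smallest p. The split by promoter element was chosen after the values were seen. Alternatives were other scalings, pseudocounts, filters, limma settings, a replicate block, and each library left out. Promoter windows are RefSeq's, on GRCm38.p6, and were not aligned to the authors' build. Protein sequences were not analysed here.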

Additional observations from a re-analysis of the deposited data

Results flagged for a closer look

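In each group of 4 libraries the highest or lowest value of a member was compared with the gap to its neighbour (Dixon's test at its 95% critical value for 4 samples), which chance alone passes in about 5% of groups. Of 148 groups, 10 passed. The 148 include the Sham groups of Asns, Trib3 and Chac1, which had no spread and could not be examined. In MCAO+AS-Exos replicate 4 stood apart for 4 members: Hsp90b1 was at 362.35 FPKM against 182.81 to 199.28 in the other 3 libraries, Canx at 213.48 FPKM against 108.16 to 120.23, Dnajb11 at 52.07 FPKM against 77.64 to 83.06, and Xbp1 at 68.8 FPKM against 152.06 to 161.17. In the same group Dnajc3 was at 31.04 FPKM in replicate 1 against 25.69 to 26.45 in the others, and Eif2ak3 at 3.19 FPKM in replicate 2 against 4.44 to 4.64. In MCAO+Ctrl-Exos replicate 1 Sec61b was at 718.37 FPKM against 1399.06 to 1565.28. Dnajb11 was at 53.02 FPKM in MCAO replicate 3 against 68.91 to 72.72. In Sham, Calr was at 193.26 FPKM in replicate 1 against 271.36 to 289.06, and Spcs1 at 248.27 FPKM in replicate 4 against 409.36 to 453.64.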

How the results depend on the processing

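Counts of members called (higher or lower) depended most on the analysis in the comparisons among stroke groups. In MCAO against Sham the lower count was 6 without trend and robust. In MCAO+Ctrl-Exos against MCAO the higher count was 0 under quantile normalization, equal totals, length and GC correction, a pseudocount of 0.1, no filter, no trend and robust, or only the 8 libraries compared, and 3 with MCAO+AS-Exos 4 and MCAO+Ctrl-Exos 1 both left out. In MCAO+AS-Exos against MCAO+Ctrl-Exos the higher count was 3 with quality weights and 1 with both left out. The lower count there was 2 with length and GC correction or a minimum of 5 FPKM, 0 without trend and robust or with only 8 libraries, 14 with quality weights and 9 with both left out. In MCAO+AS-Exos against MCAO the higher count was 5 with quality weights and 3 with both left out. The lower count was 0 with a pseudocount of 0.1, without trend and robust or with only 8 libraries, 8 with quality weights and 5 with both left out. Over all genes, quality weights called 1226 higher and 2040 lower in MCAO+AS-Exos against MCAO+Ctrl-Exos, and 1138 and 2817 in MCAO+AS-Exos against MCAO. With both left out, these comparisons gave 356 and 732, and 464 and 1691. The main fit gave 17 and 14, and 115 and 551, of 10846 genes. In MCAO+Ctrl-Exos against MCAO, leaving both out called 115 genes higher and 53 lower, against 5 and 3. In MCAO+Ctrl-Exos against Sham the lower count was 12 under quantile normalization, where Hspa5 reversed to -0.59, and 9 with equal totals. Over all genes the lower count was 2116 and 2134 in these 2 settings, against 1802 in the main fit.

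With 1 library left out at a time, the higher and lower counts ranged from 7 to 11 and 6 to 10 in MCAO against Sham, 0 to 2 and 0 to 0 in MCAO+Ctrl-Exos against MCAO, 0 to 2 and 0 to 7 in MCAO+AS-Exos against MCAO+Ctrl-Exos, 0 to 3 and 0 to 4 in MCAO+AS-Exos against MCAO, 9 to 15 and 3 to 7 in MCAO+Ctrl-Exos against Sham, and 7 to 10 and 6 to 9 in MCAO+AS-Exos against Sham. Same-numbered libraries deviated together by correlations of only -0.148 to 0.0923, so the numbers gave no pairing. With the replicate block, 0 members were called lower in MCAO+AS-Exos against MCAO, Hsp90b1 having an adjusted p of 0.0623. Causes were not tested. FPKM values give no depth, which limits statements on weakly expressed members such as Hyou1, Asns, Trib3 and Chac1.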
